A study of Saccharomyces cerevisiae with 6 samples.

Results

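The 6 genes described here encode the iron transporters of 2 compartments of the budding yeast Saccharomyces cerevisiae, the vacuole and the mitochondrion. They were chosen by name: SMF3, FTH1 and FET5 for export from the vacuole, CCC1 for import into it, and MRS3 and MRS4 for the mitochondrial carriers. Each had 1 spot on the membranes, so 6 of the 5490 gene symbols measured are covered. The 3 strains compared were all labelled as without iron: a strain called Y18aft2delta (aft1aft2), the strain Y18 (aft1) named as its background, and CM3260 (wt). The labels do not say how either AFT gene was disrupted, nor that each line was more than 1 clone. RNA came from exponentially growing whole cultures, in which a change in every cell and a change in part of the cells cannot be told apart. Each of the 3 strain comparisons was deposited as a log ratio in experiments 1 and 2, which makes 6 samples.

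The yeast vacuole stores iron that the cytosol does not need. Ccc1 moves iron from the cytosol into the vacuole. When iron is scarce, stored iron is returned by Smf3, a divalent metal transporter of the Nramp family, and by Fet5 and Fth1, a multicopper oxidase and an iron permease that work as a pair. Fet5 and Fth1 resemble Fet3 and Ftr1, the oxidase and permease that take up iron at the plasma membrane. Mrs3 and Mrs4 are paralogous carriers of the inner mitochondrial membrane that bring in iron for haem and iron-sulfur clusters. Aft1 and Aft2 are related transcription factors that raise the transcription of iron genes when iron is low, and SMF3 and MRS4 are known targets of Aft2.

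Values below are log2 ratios turned to mutant minus its comparison strain, and centred on the median of their column, so 0 is the typical spot. The sources used here give no base for the logarithm, and log2 was assumed. The direction is likely rather than stated. It follows the order of strains in the titles and known uptake genes such as FET3, and was not taken from the 6 transporters. Were the order reversed, every sign would turn and every size would stay. The 3 ratios of an experiment came from 3 shared hybridisations, so the comparisons are not independent of each other. Errors are standard errors (SE) from limma with n = 2 hybridisations per strain, and a change was called at a limma adjusted p under 0.05 over all 6084 spots. Counts at an unadjusted limma p under 0.05 are descriptions. Their share over all spots was counted only in aft1 against wt, at 15.4%.

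The spots of the mutated genes did not check the strain labels. AFT1 stood at -0.62 ± 0.25 in aft1aft2 against aft1, -0.59 ± 0.25 in aft1aft2 against wt and 0.03 ± 0.25 in aft1 against wt. AFT2 was 0.21 and 2.00 in experiments 1 and 2 of aft1aft2 against aft1, and -0.40 and 1.96 in aft1aft2 against wt. The fitted AFT2 values, 1.11 ± 0.54 and 0.78 ± 0.54, were thus above 0, not below it, in aft1aft2. In the fit on all hybridisations none of these passed limma's test, with adjusted p-values from 0.213 to 0.970. Without aft1aft2 replicate 1 the AFT2 value in aft1aft2 against wt was further above 0, at 1.81. Strain names below therefore mean the hybridisations labelled so. Markers of the alpha mating type moved with the strains too. All 4 fell in aft1aft2 against wt (STE3, SAG1, MF(ALPHA)1 and MF(ALPHA)2, -2.85 to -1.34). In aft1 against wt 1 of 4 passed (-1.85 to -0.59). All 4 were lower there at an unadjusted p under 0.05, beside 15.4% of all spots in either direction. In aft1aft2 against aft1 0 of 4 passed, with 2 lower at an unadjusted p under 0.05. Over all spots 4.44%, 1.46% and 2.83% were called in these comparisons in either direction. Of 7 a-type markers 0 passed in any of the 3 comparisons. At an unadjusted p under 0.05 there were 2 higher in aft1aft2 against aft1, 3 higher and 1 lower in aft1aft2 against wt, and 1 lower in aft1 against wt. Their part in the results on the transporters was not tested.

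In aft1aft2 against aft1, 3 of the 6 transporter genes fell: SMF3, FTH1 and MRS4. The 3 others, FET5, CCC1 and MRS3, had lower values that did not pass the test. The falls covered both organelles, and within each organelle at least 1 transporter did not pass. Over all spots 2.6% were called lower in this comparison and 2.83% in either direction. The median of the 6 genes was -1.17, beside 0.03 over all spots.

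SMF3, the vacuolar Nramp transporter gene, had ratios of -2.07 and -2.56 in experiments 1 and 2 of aft1aft2 against aft1. Both experiments put it more than 4-fold lower in aft1aft2. The fitted change was -2.31 ± 0.27 (SE, n = 2), which is 4.97-fold lower with a limma adjusted p of 0.013. It was the 45th lowest of the 6084 spots. FTH1, the vacuolar permease gene, was at -1.33 and -2.19, lower in both experiments but 0.86 apart. Its fitted change was -1.76 ± 0.29, or 3.38-fold lower (adjusted p = 0.0383).

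MRS4, the mitochondrial carrier gene, had ratios of -1.79 and -1.91, the closest pair of values among the 6 transporters in this comparison. It fell by 1.85 ± 0.33, or 3.59-fold (adjusted p = 0.0468), and was the 80th lowest spot. Its paralogue MRS3 was at -0.73 and -0.45, also below 0 in both experiments, but closer to it. The fitted MRS3 value was -0.59 ± 0.30 with a 95% interval from -1.31 to 0.14 (adjusted p = 0.305). MRS4 minus MRS3 was -1.06 and -1.46 in the 2 experiments, a description with no test.

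FET5, the oxidase gene, was at -0.02 and -1.08 in aft1aft2 against aft1, so that experiment 1 showed almost no difference and experiment 2 a 2.11-fold lower value. Its fitted value was -0.55 ± 0.31, with a 95% interval from -1.31 to 0.21 (adjusted p = 0.353). CCC1, the importer gene, was at -0.08 and -0.51, with a fitted value of -0.29 ± 0.32 and an interval from -1.06 to 0.47 (adjusted p = 0.622). These intervals leave room for a fall of about 2-fold in either gene. FTH1 minus FET5, the permease and oxidase that work as a pair, was -1.31 and -1.11. CCC1 minus SMF3, the importer and one of the exporters, was 1.99 and 2.05.

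The calls of this comparison rested on both aft1 membranes. Without aft1 replicate 1 the adjusted p-values were 0.119 for SMF3, 0.19 for FTH1 and 0.183 for MRS4, and without aft1 replicate 2 they were 0.18, 0.465 and 0.467, while the changes stayed between -2.37 and -1.52. FTH1 was also not called without aft1aft2 replicate 2 (adjusted p = 0.0832), nor MRS4 without aft1aft2 replicate 1 or 2 (adjusted p = 0.0584 and 0.0721). On values left uncentred, SMF3 passed (adjusted p = 0.0416), and FTH1 and MRS4 did not (adjusted p = 0.086 and 0.123).

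**Figure D1:**
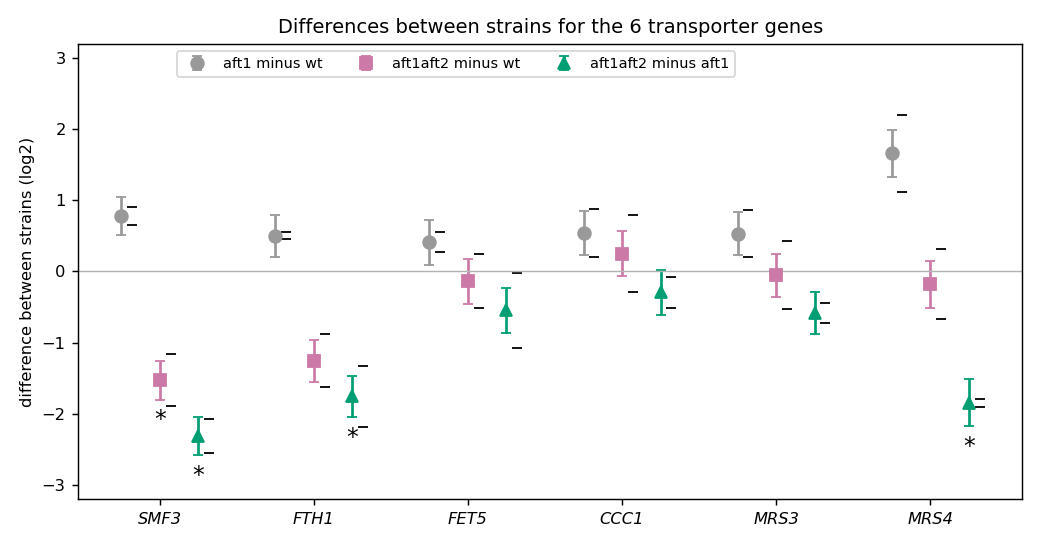
Differences between strains (log2, vertical axis) for the 6 transporter genes (horizontal axis) in 3 comparisons. Symbols with bars are fitted values ± SE, black dashes the values of experiments 1 and 2, and asterisks mark a limma adjusted p under 0.05. SMF3, FTH1 and MRS4 have asterisks in aft1aft2 minus aft1, and SMF3 also in aft1aft2 minus wt.

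In aft1aft2 against wt, 1 of the 6 genes fell, SMF3, and the mitochondrial carrier genes lay on both sides of 0. Over all spots 3.71% were called lower and 4.44% in either direction. The median of the 6 genes was -0.16, beside 0.02 over all spots. Only SMF3 and FTH1 had the same sign in both experiments, and the share of all spots with the same sign was not counted.

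SMF3 was at -1.16 and -1.90 in experiments 1 and 2, lower than in wt both times. The fitted change was -1.53 ± 0.27 (SE, n = 2), or 2.89-fold lower with a limma adjusted p of 0.0375. FTH1 was at -0.88 and -1.63, also lower both times. Its fitted value of -1.26 ± 0.29 did not pass (adjusted p = 0.076, unadjusted p = 0.00475), and its 95% interval ran from -1.97 to -0.54.

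The 4 other genes changed sign between the experiments. MRS4 was at -0.67 and 0.32, and MRS3 at -0.53 and 0.43, so that both carrier genes were lower in experiment 1 and higher in experiment 2. MRS4 minus MRS3 was -0.14 and -0.11, in contrast to the gaps of over 1 in aft1aft2 against aft1. FET5 was at 0.24 and -0.52, and CCC1 at 0.79 and -0.30, which is the reverse order. The fitted values of these 4 lay between -0.18 for MRS4 and 0.25 for CCC1, with adjusted p-values from 0.682 to 0.932. With the values as deposited, FET5, MRS3 and MRS4 turned to 0.38, 0.46 and 0.33, none past the test.

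The SMF3 call against wt held in 6 of 13 alternative settings. It did not pass with the values as deposited (-1.02, adjusted p = 0.077), on its own 2 ratios (adjusted p = 0.0532), or without wt replicate 1 or 2 (adjusted p = 0.0508 and 0.15), either aft1 replicate (0.0924 each) or aft1aft2 replicate 2 (0.0927).

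In aft1 against wt none of the 6 genes passed limma's test, while SMF3 and MRS4 had higher values at an unadjusted p under 0.05. Over all spots 1.46% were called, and 15.4% had an unadjusted p under 0.05. All 6 genes had values above 0 in both experiments, a share that was not counted over all spots. Their median was 0.54, beside 0.01 over all spots.

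MRS4 stood furthest from wt, at 1.12 and 2.20 in experiments 1 and 2, or 2.17-fold and 4.6-fold higher. Its fitted value was 1.66 ± 0.33 (SE, n = 2), the 41st highest of all spots, with a limma adjusted p of 0.0776 and an unadjusted p of 0.00207. The gap between its experiments, 1.08, was wider than at 92.8% of spots. MRS3 was at 0.20 and 0.86, with a fitted value of 0.53 ± 0.30 (adjusted p = 0.448). MRS4 minus MRS3 was 0.92 and 1.34.

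SMF3 was at 0.91 and 0.65 in aft1 against wt, with a fitted value of 0.78 ± 0.27 and a 95% interval from 0.12 to 1.44 (adjusted p = 0.249). FTH1 was at 0.45 and 0.55, FET5 at 0.27 and 0.55, and CCC1 at 0.88 and 0.20. The fitted values of these 3 lay between 0.41 and 0.54, with adjusted p-values from 0.462 to 0.592. The vacuolar permease and oxidase genes were therefore close to each other here, FTH1 minus FET5 being 0.18 and 0 in the 2 experiments.

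**Figure D2:**
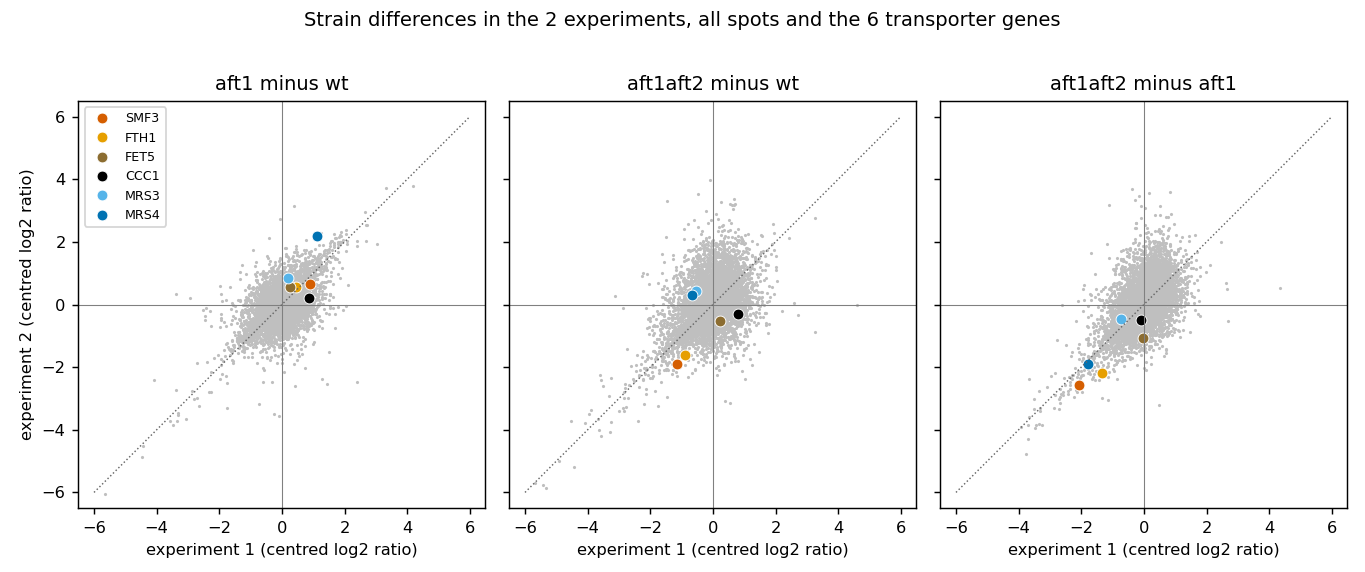
Centred log2 ratios of experiment 1 (horizontal axis) and experiment 2 (vertical axis) for all 6084 spots (grey) and the 6 transporter genes (coloured), with 1 panel per comparison and a dotted line of equal values. SMF3, FTH1 and MRS4 are low in both experiments of aft1aft2 minus aft1, MRS4 close to the dotted line and FTH1 0.86 apart, and MRS3, MRS4, FET5 and CCC1 lie on opposite sides of 0 in the 2 experiments of aft1aft2 minus wt.

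The 3 ratios of an experiment can also be written as a relative level of each strain, the log2 distance from the mean of the 3 strains. SMF3 had levels of -1.08 and -1.49 in aft1aft2, 0.99 and 1.07 in aft1, and 0.08 and 0.42 in wt. The 3 strains did not overlap, in the order aft1, wt, aft1aft2. FTH1 kept the same order without overlap, at -0.74 and -1.27 in aft1aft2, 0.59 and 0.91 in aft1, and 0.14 and 0.36 in wt. For both genes the step between the neighbours aft1 and wt did not pass limma's test, and for FTH1 neither did that between wt and aft1aft2. The share of all spots without overlap of the 3 strains was not counted, so the separation is a description only.

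MRS4 had levels of -0.82 and -0.53 in aft1aft2, 0.97 and 1.37 in aft1, and -0.15 and -0.84 in wt. Here aft1 stood above both other strains, which overlapped, and the share of all spots with this pattern was not counted either. MRS3 was at -0.42 and -0.01 in aft1aft2, 0.31 and 0.44 in aft1, and 0.11 and -0.43 in wt, with the same overlap and a narrower range. FET5 was at 0.07 and -0.53 in aft1aft2, 0.10 and 0.54 in aft1, and -0.17 and -0.01 in wt, with aft1 just above the 2 others. CCC1 was at 0.24 and -0.27 in aft1aft2, 0.32 and 0.24 in aft1, and -0.56 and 0.03 in wt, where all neighbouring strains overlapped or touched.

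In each experiment aft1 had the highest level of the 3 strains for 6 of the 6 genes. This held at 17.2% of all spots in both experiments, and the count was made after the values were seen. With the values as deposited it was 4 of 6, without FET5 and CCC1.

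**Figure D3:**
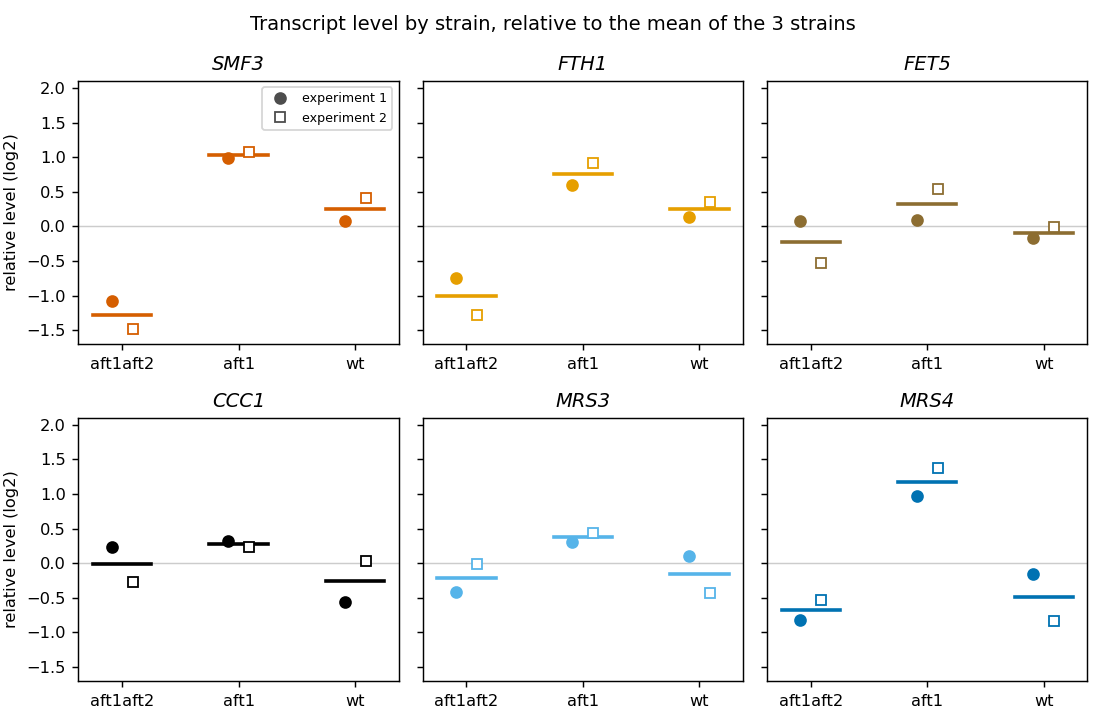
Relative transcript level of each of the 6 genes (log2, vertical axis, 0 is the mean of the 3 strains in an experiment) in aft1aft2, aft1 and wt (horizontal axis). Filled circles are experiment 1, open squares experiment 2 and bars their mean. SMF3 and FTH1 are lowest in aft1aft2, MRS4 is high in aft1 and low in both other strains, and the values of FET5, CCC1 and MRS3 lie between -0.56 and 0.54.

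Relatives of the vacuolar genes at the plasma membrane were read on the same membranes. FET3, the plasma membrane oxidase gene, was at 0.09 and -0.22 in aft1aft2 against aft1. It was at -3.32 and -3.54 in aft1 against wt, where its fall was part of the choice of direction. In the direction so chosen FET3 was also low in aft1aft2 against wt (-3.49 ± 0.25, limma adjusted p = 0.00323). FET5 minus FET3 was 3.59 and 4.09 in aft1 against wt and 3.48 and 3.23 in aft1aft2 against wt. In aft1aft2 against aft1 that difference was -0.11 and -0.86. FTR1, the plasma membrane permease gene, was at -1.18 and -2.01 in aft1aft2 against aft1, just short of the threshold (-1.59 ± 0.29, limma adjusted p = 0.0502). FTH1 minus FTR1 was -0.15 and -0.18 there, so the permease genes had similar values in that comparison. Against wt, FTR1 fell to -1.69 ± 0.29 in aft1aft2 (adjusted p = 0.0358) and was -0.10 ± 0.29 in aft1 (adjusted p = 0.903).

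SMF1 and SMF2, the Nramp genes of the cell surface and of internal vesicles, did not pass in any comparison. In aft1aft2 against aft1 SMF1 was at -0.54 and -0.73 (-0.63 ± 0.23, limma adjusted p = 0.187) and SMF2 at -0.16 and -0.50 (-0.33 ± 0.25, adjusted p = 0.473). SMF3 minus SMF1 was -1.53 and -1.83, and SMF3 minus SMF2 was -1.91 and -2.06. The spots of SMF3 and its relatives therefore gave different values on the same membranes. Whether the spots of MRS3 and MRS4, or of other related genes, read each other's transcripts was not examined here.

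Further genes of the vacuole were compared as 2 lists. Of 10 genes for metals in the vacuole 1 fell in aft1aft2 against aft1, beside 2.6% of all spots. This was ZRT3, which encodes the vacuolar zinc exporter, at -1.84 ± 0.24 (limma adjusted p = 0.0191). ZRT3 also fell in aft1aft2 against wt, to -3.11 ± 0.24 (adjusted p = 0.0038), again 1 of 10, beside 3.71% of all spots. At an unadjusted p under 0.05, 4 of the 10 were below 0 and 0 above it in each of these 2 comparisons. The share of all spots at that threshold was not counted for these 2 comparisons, so no trend is read from such counts. In aft1aft2 against aft1 the 3 besides ZRT3 were the vacuolar cobalt and zinc importer gene COT1 at -1.47 ± 0.27 (adjusted p = 0.0502), the vacuolar copper transporter gene CTR2 at -1.27 ± 0.33 (adjusted p = 0.0999) and the calcium exchanger gene VCX1 at -1.03 ± 0.24 (adjusted p = 0.0851). In aft1 against wt 0 of 10 passed, while at an unadjusted p under 0.05 there was 1 gene on each side, PMC1 above and ZRT3 below 0. The medians of the 10 were -0.61, -0.59 and -0.02 in aft1aft2 against aft1, aft1aft2 against wt and aft1 against wt. Of 13 measured genes of the vacuolar ATPase, the proton pump that acidifies the vacuole, 0 passed in any of these comparisons. Their medians were -0.40, -0.56 and -0.06 in the same order, with 3 lower, 6 lower and 1 higher at an unadjusted p under 0.05.

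Among genes that use or move iron inside mitochondria, 0 of 17 passed in aft1aft2 against aft1, beside 2.83% of all spots. At an unadjusted p under 0.05 there was 1 lower, and the median of the 17 was 0.05. ISA1, an iron-sulfur assembly gene, was the 1 that rose in aft1aft2 against wt (1.67 ± 0.25, limma adjusted p = 0.0256) and in aft1 against wt (1.64 ± 0.25, adjusted p = 0.0386). Over all spots 4.44% and 1.46% were called in these comparisons in either direction. At an unadjusted p under 0.05 the list had 4 above 0 and 1 below in aft1aft2 against wt, and 2 above and 1 below in aft1 against wt. Of 29 other genes of the mitochondrial carrier family 1 fell in aft1aft2 against aft1, beside 2.6% of all spots. This was PET9, the main ADP/ATP carrier gene, at -1.68 ± 0.29 (adjusted p = 0.0412), and the family's median was 0.23. In aft1aft2 against wt 1 carrier gene rose, PIC2, for copper and phosphate transport, at 1.38 ± 0.23, and 1 fell, GGC1, the GTP/GDP carrier gene linked to mitochondrial iron, at -2.07 ± 0.34 (adjusted p = 0.032 for both). Over all spots 4.44% were called in that comparison in either direction. In aft1 against wt 0 of 29 passed, beside 1.46% of all spots. At an unadjusted p under 0.05 there were 6 carrier genes above 0 and 3 below in aft1aft2 against aft1, 5 above and 2 below in aft1aft2 against wt, and 3 on each side in aft1 against wt. Over all spots the share at that threshold was counted only in aft1 against wt, at 15.4%.

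**Figure D4:**
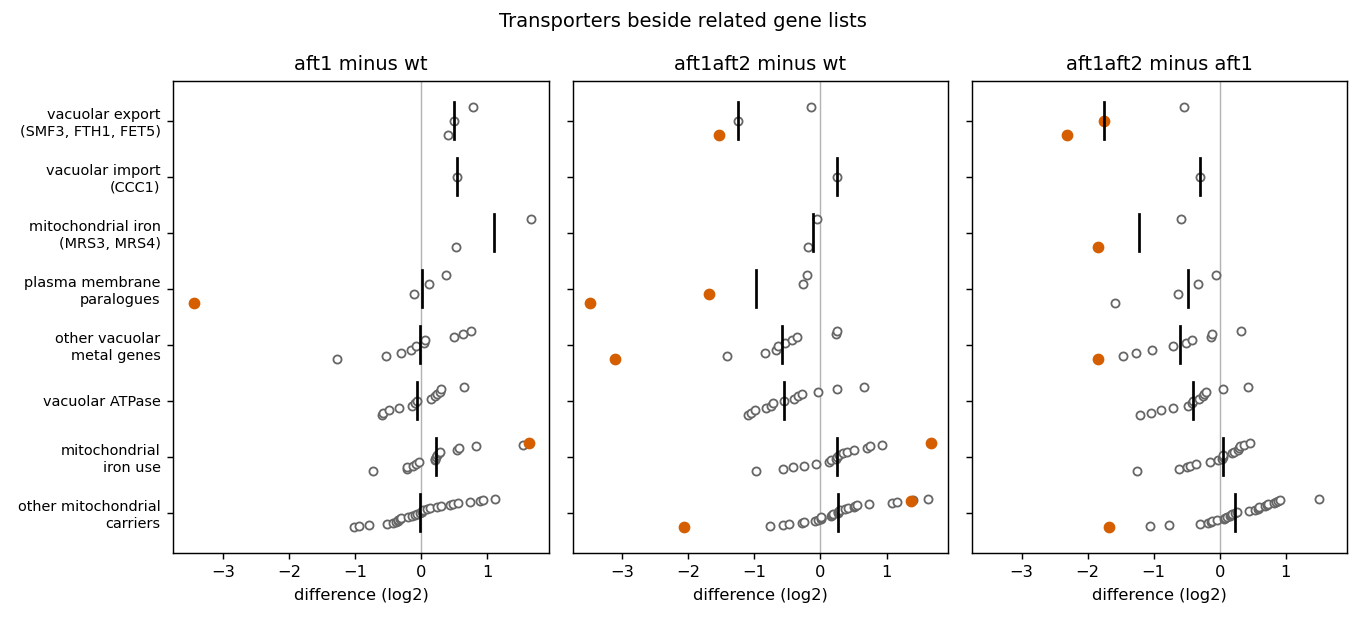
Fitted differences (log2, horizontal axis) for the transporter genes by role and for 5 related gene lists (rows), with 1 panel per comparison. Each circle is a spot, filled where the limma adjusted p is under 0.05, and black bars are medians. In aft1aft2 minus aft1 filled circles appear at SMF3, FTH1 and MRS4, and at 1 gene each among other vacuolar metal genes (ZRT3) and other mitochondrial carriers (PET9).

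The neighbours of the 6 genes on the chromosomes, taken from the order of protein-coding genes in the R64 gene table, did not pass the test. Of 12 neighbours 9 had a spot, and 0 of 9 passed limma's test in any comparison. Over all spots 2.83%, 4.44% and 1.46% were called in aft1aft2 against aft1, aft1aft2 against wt and aft1 against wt. At such shares 9 spots would often hold no call, so the count is not read as a trait of the neighbours. At an unadjusted p under 0.05 there were 1, 2 and 2 in the same order. Over all spots that share was counted only in aft1 against wt, at 15.4%. In aft1aft2 against aft1 the values of the neighbours lay between -0.59 and 0.81, above those of SMF3, FTH1 and MRS4, the members called lower there. In the other comparisons some lay on the same side as their member. KTR3, next to FTH1, was at -1.15 in aft1aft2 against wt, beside -1.26 for FTH1, but at -0.56 in aft1 against wt. MLH2, next to SMF3, and YSR3, next to MRS4, were at 0.91 and 0.96 in aft1 against wt. They were at 0.60 and 0.63 in aft1aft2 against wt, above both members.

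The 5 spots closest to each called transporter gene were sought among all other named spots, iron genes included. Distance was the root mean square difference over the 6 centred ratios, of which 4 columns are independent. Closest to SMF3 were FAS2, PMA1, NCP1, LSC1 and YNL190W, at distances of 0.21 to 0.30. They included the genes of a fatty acid synthase subunit (FAS2) and of the plasma membrane proton pump (PMA1). Closest to FTH1 were NPC2, ABP1, ADE1, TKL1 and HXK2, at 0.10 to 0.29. Closest to MRS4 were ERG3, DAN1, BRR2, COS7 and ALD6, at 0.30 to 0.47. ERG3, the sterol desaturase gene, was at -1.76 in aft1aft2 against aft1, 0.00 in aft1aft2 against wt and 1.76 in aft1 against wt, beside -1.85, -0.18 and 1.66 for MRS4.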

How the data were processed

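Per the labels, 5 µg of total RNA was copied and hybridised to nylon GeneFilters membranes, exposed for 3 days and quantified with PATHWAYS 3. For each sample the authors deposited 1 ratio per spot on a log scale, treated as log2 values. The sources used here give neither the base, nor how membranes were normalised, nor their signal over background. The platform table named 5523 of 6084 spots with 1 symbol, 0 with several and 561 with none, and all 5523 matched the R64 gene table. Columns were turned and centred on their medians. The log ratios of aft1 to wt and aft1aft2 to aft1 added up to that of aft1aft2 to wt within 0.01 at 6084 spots in each experiment, so same-numbered samples share hybridisations and experiment was kept as a block. The 3 ratios of an experiment were reduced to 3 strain levels by least squares and fitted on strain and experiment with limma 3.58.1 in R 4.3.3 (two-sided, Benjamini-Hochberg, 2 residual degrees of freedom, prior 4.25). Separate cultures are not stated for the experiments, so the spread behind the p-values, which is that between these samples, may be technical. The fit was checked on simulated data in which all hybridisations varied alike and as many spots rose as fell. That check cannot speak to differences in spread between the membranes. The genes and lists were chosen with earlier results of these data known. Named were the 6 genes, their plasma membrane relatives, AFT1, AFT2 and YAP5, list genes past the test in any comparison, and the 5 spots closest to each called gene. VMA10 and ISD11 were listed but not measured here.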

Additional observations from a re-analysis of the deposited data

How the results depend on the processing

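Counts are given for aft1 against wt first, then aft1aft2 against wt, then aft1aft2 against aft1. Of the 6 transporter genes 0, 1 and 3 passed, and of all spots 89, 270 and 172. With the values as deposited the counts of the 6 were 0, 0 and 1, and of all spots 58 (44 higher and 14 lower, against 51 and 38), 72 (36 and 36, against 44 and 226) and 52 (2 and 50, against 14 and 158). Columns were not centred then, with medians of 0.31 and 0.22, 0.40 and 0.625, and 0.09 and 0.42 in experiments 1 and 2. With columns scaled or quantile normalised 1 gene passed in aft1 against wt, MRS4 (adjusted p = 0.0362 and 0.0414), among 217 and 213 spots (50.2% and 44.6% higher, against 57.3%). Each comparison on its own ratios gave 0, 0 and 2 genes, without FTH1 in the last (adjusted p = 0.0579), and 44, 157 and 112 spots. With no replicate block, where the levels of an experiment sum to 0 by construction so that the changes stay and the errors are too small, the counts were 1, 2 and 3 genes and 590, 940 and 950 spots. No sample was paired in any other way. With 1 hybridisation left out the counts ran from 0 to 1, 0 to 2 and 0 to 3 genes, and from 4 to 233, 75 to 559 and 13 to 503 spots. Without aft1aft2 replicate 1 the spots called lower were about as many as those called higher: 287 were higher and 272 lower in aft1aft2 against wt, and 255 and 248 in aft1aft2 against aft1. A strain left with 1 membrane is then assumed to vary like the others. In aft1aft2 against aft1 there were 0 genes without either aft1 replicate, 1 without aft1aft2 replicate 2 (SMF3, adjusted p = 0.0347), 2 without aft1aft2 replicate 1 (SMF3 and FTH1) and 3 without either wt replicate. MRS4 had adjusted p-values of 0.0584 and 0.0721 without aft1aft2 replicate 1 or 2. In aft1 against wt it passed without wt replicate 1 (2.18, adjusted p = 0.0357) or either aft1aft2 replicate (adjusted p = 0.044). FTH1 passed in aft1aft2 against wt without aft1aft2 replicate 1 (-1.66, adjusted p = 0.0299) and with no replicate block (adjusted p = 0.026). No called change of the 6 genes turned sign in any setting, and leaving out unnamed spots or a robust prior changed no call of theirs. The cause of these shifts was not tested. The 2 hybridisations per strain limit the precision.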

Other observations

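Of 8 regulators linked to these transporters 1 was called in aft1aft2 against aft1, beside 2.83% of all spots, 2 in aft1aft2 against wt, beside 4.44%, and 0 in aft1 against wt, beside 1.46% and with 2 lower at an unadjusted p under 0.05. TIS11, whose product destabilises transcripts of iron-using proteins and also that of CCC1, fell to -1.55 ± 0.26 (SE, n = 2) in aft1aft2 against aft1 and to -2.30 ± 0.26 in aft1aft2 against wt (limma adjusted p = 0.0404 and 0.0124), and was -0.75 ± 0.26 in aft1 against wt (adjusted p = 0.254). Its paralogue CTH1 was 0.29, 0.06 and -0.23 in the same order. CCC1 was at -0.29, 0.25 and 0.54, none past the test. YAP5, which activates CCC1 when iron is high, was -0.32 ± 0.33, -0.56 ± 0.33 and -0.24 ± 0.33. GRX3, encoding a glutaredoxin that takes part in iron sensing, fell in aft1aft2 against wt, to -1.17 ± 0.23 (adjusted p = 0.0464), while GRX4 and BOL2 were -0.10 and 0.79 there without passing.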
